A study of Mus musculus with 4 samples.

Results

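Idh1 encodes the NADP-dependent isocitrate dehydrogenase of the cytosol, and it was described here together with Idh2, Idh3a, Idh3g, G6pdx, Pgd, Me1, Tkt and Taldo1, enzymes that make NADPH or stand next to those that do. The members were every probe set that the platform annotation pairs with 1 of these 9 symbols alone. Such probe sets existed for 8 of the 9 genes and numbered 17 of the 22626 on the array that are not Affymetrix controls, and no value is given for G6pdx, which the annotation used here pairs with none of them. The set was built around Idh1 because Idh1 differed between the groups in an earlier analysis of the same 4 arrays. Idh1 was thus chosen by the measured values described below. The difference between the groups is therefore given for the members as a description, without p-values.

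The arrays came from Py-4-1, a cell line of a mouse hemangioendothelioma, a tumour of endothelial cells. The groups were 2 clones transfected with pcDNA/Prox1, which the labels call stably Prox1-expressing, and 2 control clones transfected with pcDNA, with 1 array for each clone. Prox1 is the homeobox transcription factor of lymphatic endothelium, and the series title concerns invasion of kaposiform hemangioendothelioma. Differences between clones, cultures and array handling cannot be told apart within a group, nor can fewer cells holding a transcript and less of it per cell.

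Prox1 itself read 62.4 and 44.3 in clones 1 and 2 labelled pcDNA/Prox1, against 52.1 and 60.5 in pcDNA clones 1 and 2, so the groups overlapped. On 3 of the 4 arrays, all but that of pcDNA clone 1, its signal was below the brightest among 27 control probe sets for Bacillus genes, absent from mouse cells, so no change is given for it. The labels do not say whether its 1 probe set (1421336_at) lies within the transfected sequence, so the groups are called by their labels. The summed intensity of 10 endothelial markers was 49433 and 46795 in pcDNA/Prox1-labelled clones, against 35882 and 45924 in pcDNA clones. Pecam1, an endothelial adhesion molecule, read 6242 and 5826 against 5679 and 5418, and the cadherin of endothelial junctions, Cdh5, gave 3340.4 and 3332 against 2133 and 4091. Of the 10 endothelial markers, 9, all but Cldn5, exceeded the highest Bacillus control on all 4 arrays. That highest control read 88.4 and 97.5 in pcDNA/Prox1-labelled clones and 45.3 and 101 in pcDNA clones. Of 7 epithelial markers, 2 (Krt8 and Cldn4) exceeded that level on all 4 arrays and 3 (Epcam, Cdh1 and Krt18) on none, with summed intensities of 594 and 507 in pcDNA/Prox1-labelled clones and 595 and 477 in pcDNA clones. Summed intensities of 7 leukocyte markers were 1362 and 1483 in pcDNA/Prox1-labelled clones, against 1333 and 1771 in pcDNA clones. Of these 7, 3 (Cd68, Csf1r and Lyz2) exceeded that level on all 4 arrays and 3 (Ptprc, Cd3e and Itgam) on none. Of 8 fibroblast and mural cell markers, 3 (Acta2, Col1a2 and Rgs5) exceeded it on all 4 arrays and 3 on none.

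NADPH is the reductant that cells use to build fatty acids and sterols and to recycle glutathione and thioredoxin. It is made from NADP by Idh1 in the cytosol and peroxisomes, by Idh2 in mitochondria, by malic enzyme (Me1) in the cytosol and by the dehydrogenases G6pdx and Pgd of the oxidative pentose phosphate pathway. Tkt and Taldo1 carry out the non-oxidative, reversible part of that pathway and make no NADPH. Idh3a and Idh3g are subunits of the NAD-dependent isocitrate dehydrogenase of the citric acid cycle, which yields NADH, so that the name NADPH-producing holds for 5 of the 9 genes.

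The promoters of Idh1 and of Idh2, its mitochondrial counterpart, are shown because Idh1 is the member that differed most between the groups and Idh2 carries out the same reaction. The short stretch of Me1 is shown because it holds the antioxidant response element core that Idh1 lacks. Sequences are RefSeq's for GRCm38.p6, listed for 8 of the 9 members at 11 transcription starts, and run 5′ to 3′ on the gene's strand. For Idh1 (chr1:65186480-65186729, minus strand) and Idh2 (chr7:80115351-80115600, minus strand) they cover the 250 bases before the first listed start, with CCAAT boxes and GC boxes in capitals. For Me1 (chr9:86695905-86695934, minus strand) the 30 bases around the start are given, with the element core in capitals.
Idh1: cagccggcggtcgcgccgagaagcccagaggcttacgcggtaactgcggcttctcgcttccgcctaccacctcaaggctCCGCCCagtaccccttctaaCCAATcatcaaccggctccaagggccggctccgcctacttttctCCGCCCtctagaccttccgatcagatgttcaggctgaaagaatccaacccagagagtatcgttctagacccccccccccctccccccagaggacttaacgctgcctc
Idh2: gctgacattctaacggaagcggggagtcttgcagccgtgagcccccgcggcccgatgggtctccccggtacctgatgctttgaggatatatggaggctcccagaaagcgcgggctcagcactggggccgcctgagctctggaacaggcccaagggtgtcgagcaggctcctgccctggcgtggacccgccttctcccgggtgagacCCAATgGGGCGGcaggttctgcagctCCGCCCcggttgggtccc
Me1: ggccgatgccgccgTGACTCAGCgcttctc

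Both strands of the windows of 300 bases, from 250 before to 50 after each start, were searched for 5 motifs. The antioxidant response element core TGACNNNGC, the sequence that the stress-response factor NRF2 binds, occurred at 4 of the 11 member starts (1 each of Idh3g, G6pdx, Pgd and Me1) and at 12.4% of all 32851 promoters listed. In the 250 bases before the start alone it occurred at 2 of the 11 and at 10.2% of all. The sterol element TCACNCCAC was found at 0 of the 11 starts, against 1.24% of all promoters, and the E-box CACGTG at 0, against 7.15%. The CCAAT box (CCAAT) was found at 5 of the 11 starts and at 37.4% of all promoters. The GC box GGGCGG was found at 8 of the 11 and at 35.7% of all. No base of the 3 stretches printed belonged to more than 1 motif match. At the first start of Idh1 the CCAAT box began at position -151 and the GC boxes at -171 and -107, counted from the start.

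Idh1 was the member with the largest difference between the groups. Its brighter probe set (1422433_s_at) read 813 and 799.8 in pcDNA/Prox1-labelled clones 1 and 2, against 197 and 215 in pcDNA clones 1 and 2. The groups were far apart, and the clones of each group lay close together. Means were 807 ± 9.56 and 206 ± 12.9 (SD, n = 2 each), a ratio of 3.91, and the 4 ratios of a pcDNA/Prox1-labelled clone to a pcDNA clone ran from 3.71 to 4.13. On the scale used for all changes below, log2 of the intensity plus 47, the change was 1.75 ± 0.19 (standard error of the limma fit). Within the groups clone 2 differed from clone 1 by -0.023 in pcDNA/Prox1-labelled and by 0.10 in pcDNA clones on this scale.

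The change of this probe set was the 17th highest among 11656 probe sets tested. It was the 1 member probe set past the adjusted threshold of 0.05, in a fit that called 0.0944% of probe sets higher and 0.00858% lower (8.65% and 5.88% at an unadjusted p under 0.05). Since that call is what led to the choice of members, nothing is read from it.

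A second probe set of Idh1 (1419821_s_at) gave a smaller difference. It read 172 and 257 in pcDNA/Prox1-labelled clones, against 155 and 142 in pcDNA clones, and lay below the intensity filter. The groups did not overlap, but pcDNA/Prox1-labelled clone 1 was closer to the pcDNA clones than to clone 2. The log2 change was 0.40 ± 0.25, in a range from 0.16 to 0.64 on leaving out each clone. Both probe sets carry the suffix that Affymetrix gives to designs matching several transcripts, so the 2 values cannot be assigned to particular transcripts here.

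**Figure D1:**
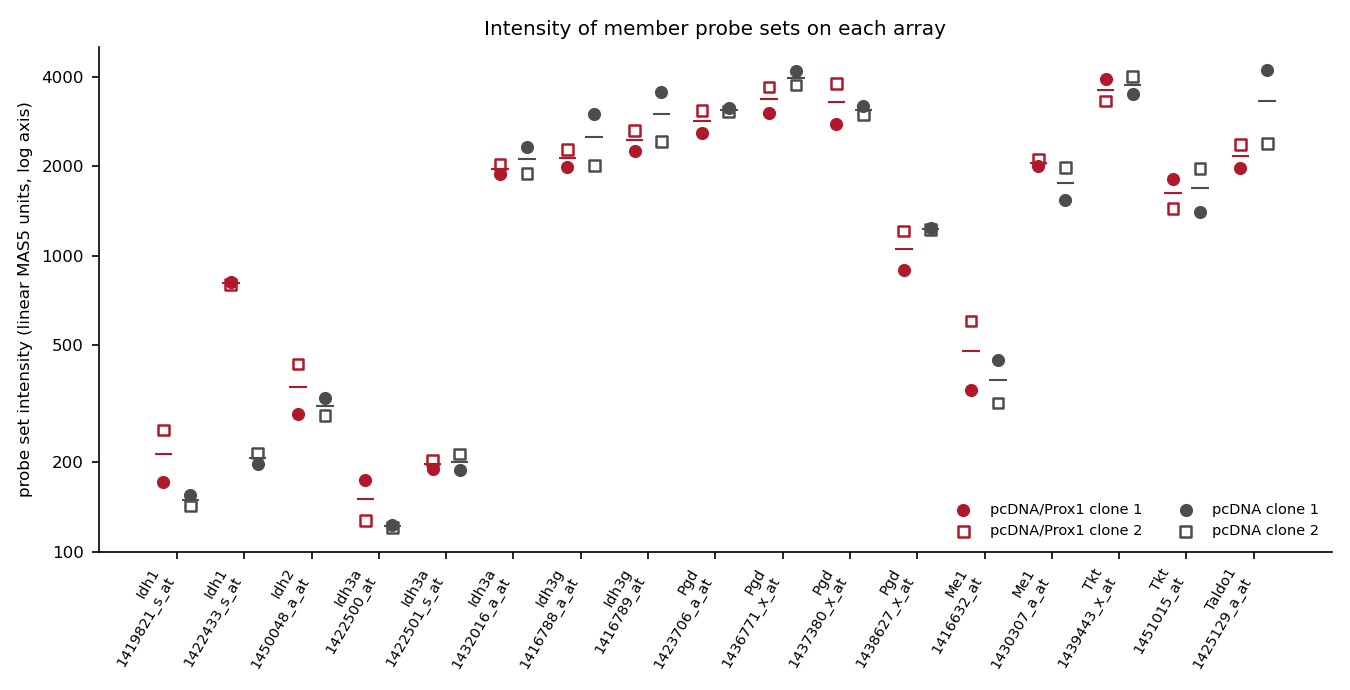
Intensity of the 17 member probe sets on each array (log axis), with pcDNA/Prox1-labelled clones in red left of pcDNA clones in grey, filled circles for clone 1, open squares for clone 2 and short lines for group means. The brighter Idh1 probe set reads 813 and 799.8 in pcDNA/Prox1-labelled clones, against 197 and 215 in pcDNA clones.

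Idh2, the mitochondrial enzyme, did not separate the groups. Its 1 probe set (1450048_a_at) read 291 and 430.3 in pcDNA/Prox1-labelled clones, against 331 and 289 in pcDNA clones. The highest and the next to lowest value both belonged to pcDNA/Prox1-labelled clones. The log2 change of 0.17 ± 0.23 became -0.074 without pcDNA/Prox1-labelled clone 2.

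Me1, the cytosolic malic enzyme that turns malate into pyruvate, was measured by 2 probe sets. The brighter (1430307_a_at) read 2008 and 2118 in pcDNA/Prox1-labelled clones, against 1538 and 1988 in pcDNA clones. Its groups did not overlap, with 1 pcDNA clone close to the lower pcDNA/Prox1-labelled clone, and the log2 change was 0.23 ± 0.20. This change was 0.0515 without pcDNA clone 1 and 0.41 without pcDNA clone 2. The dimmer probe set (1416632_at) read 352 and 602 in pcDNA/Prox1-labelled clones, against 445 and 318 in pcDNA clones, with overlap and a change of 0.26 ± 0.27.

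Pgd, the 6-phosphogluconate dehydrogenase that makes the second NADPH of the pentose phosphate pathway, had 4 probe sets, and 3 of the suffixes mark possible cross-hybridisation. The 1 without that mark (1423706_a_at) read 2594 and 3086 in pcDNA/Prox1-labelled clones, against 3161 and 3065 in pcDNA clones, with a log2 change of -0.14 ± 0.18. The lowest of these values was that of pcDNA/Prox1-labelled clone 1, and clone 2 lay between the pcDNA clones. Of the other probe sets, 1436771_x_at read 3029 and 3712 against 4218 and 3772 (-0.25 ± 0.18), and 1438627_x_at read 891 and 1211 against 1235 and 1226 (-0.23 ± 0.21). Both had groups without overlap. The fourth, 1437380_x_at, went the other way, with 2785 and 3817 against 3205 and 2981 (0.076 ± 0.20), so the probe sets of Pgd disagree in direction.

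Tkt, the transketolase, differed little. Its probe set 1439443_x_at read 3939 and 3328 in pcDNA/Prox1-labelled clones, against 3509 and 4036 in pcDNA clones, with a log2 change of -0.055 ± 0.18. The other, 1451015_at, read 1809 and 1442 against 1405 and 1973 (-0.043 ± 0.22). The groups overlapped in both, and each change took either sign depending on the clone left out.

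Taldo1, the transaldolase, had the largest negative change of the members. Its 1 probe set (1425129_a_at) read 1976 and 2376 in pcDNA/Prox1-labelled clones, against 4241 and 2397 in pcDNA clones. The groups did not overlap, but pcDNA clone 2 lay next to pcDNA/Prox1-labelled clone 2, and pcDNA clone 1 stood far above the other clones. Means were 2176 ± 283 and 3319 ± 1304 (SD, n = 2 each), and the log2 change was -0.55 ± 0.26. Without pcDNA clone 1 it was -0.14, and without pcDNA clone 2 it was -0.95.

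Of the subunits of the NAD-dependent enzyme, Idh3g, which is regulatory, read 2259 and 2646 in pcDNA/Prox1-labelled clones, against 3564 and 2431 in pcDNA clones, by probe set 1416789_at (-0.26 ± 0.22). Its other probe set (1416788_a_at) read 1990 and 2277 against 3013 and 2012 (-0.21 ± 0.22). In both the highest value was that of pcDNA clone 1 and the groups overlapped, and without that clone the changes were 0.0081 and 0.080.

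Idh3a, the catalytic subunit, had 3 probe sets. The brightest (1432016_a_at) read 1886 and 2034 in pcDNA/Prox1-labelled clones, against 2326 and 1898 in pcDNA clones (-0.099 ± 0.19). A dimmer one (1422501_s_at) read 190.3 and 203 against 189 and 214 (-0.023 ± 0.21). Both had overlapping groups. The third (1422500_at), below the intensity filter, read 174 and 128 against 123 and 121 (0.22 ± 0.24), without overlap. Idh3b, the remaining subunit and no member of the set, was named after its values were seen. It had changes of -0.25 ± 0.18 and -0.056 ± 0.20 in its 2 probe sets, with adjusted p of 0.582 and 0.931 in limma.

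Over the 17 probe sets, 7 had a positive and 10 a negative log2 change, where 51.5% of all probe sets tested were positive. In 4 the pcDNA/Prox1-labelled clones lay above both pcDNA clones and in 3 below, and in 10 the groups overlapped. All probe sets tested had groups without overlap in 23.9% of cases with the pcDNA/Prox1-labelled clones higher and in 22.3% with them lower. Of the 17, 15 passed the intensity filter, and all 8 genes measured were among them. Among these 15, the set to which the shares of tested probe sets apply, 5 had a positive change. Without overlap, 2 of the 15 were higher and 3 lower in pcDNA/Prox1-labelled clones. The difference between the groups exceeded the difference between the clones of either group for 1 of the 17, the brighter probe set of Idh1, where 16.9% of all probe sets tested did so with a higher and 15.9% with a lower value. These counts come from the contrast that chose Idh1 and are given as a description.

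**Figure D2:**
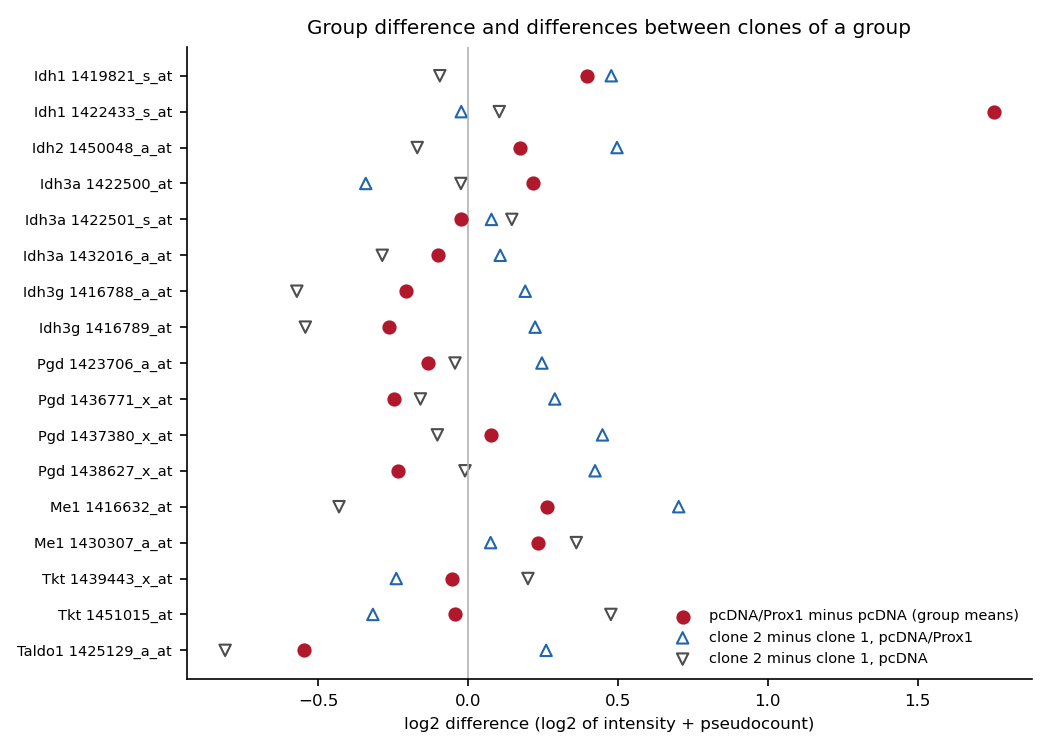
Log2 differences of the 17 member probe sets between the groups (red circles, pcDNA/Prox1 minus pcDNA) and between clones 2 and 1 within pcDNA/Prox1 (blue triangles pointing up) and within pcDNA (grey triangles pointing down). For 1 probe set, that of Idh1 at 1.75, the group difference exceeds both clone differences.

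The spread between clones enters the standard error of the fit and is likewise given as a description. The median absolute difference between clones 2 and 1 over the 17 probe sets was 0.26 in pcDNA/Prox1-labelled clones and 0.17 in pcDNA clones, against 0.164 and 0.259 over all probe sets tested. Clone 2 was above clone 1 at 13 of the 17 probe sets in pcDNA/Prox1-labelled clones and at 5 of 17 in pcDNA clones. These 2 counts have no share over all probe sets tested beside them, so nothing is read from them. The widest gaps were those of Taldo1 in pcDNA clones (-0.81, clone 2 minus clone 1) and of the dimmer Me1 probe set in pcDNA/Prox1-labelled clones (0.70). Probe sets of 1 gene share their transcript, so these counts are not counts of independent genes.

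On leaving out each clone in turn, 9 of the 17 probe sets turned sign under at least 1 of the 4 choices. No share over all probe sets tested is given beside this count, so it is a description only. The brighter Idh1 probe set, chosen by this contrast, stayed between 1.70 and 1.81. The others that kept their sign were the dimmer Idh1 probe set, 1 of Idh3a, 1 of Me1, 3 of Pgd and that of Taldo1.

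**Figure D3:**
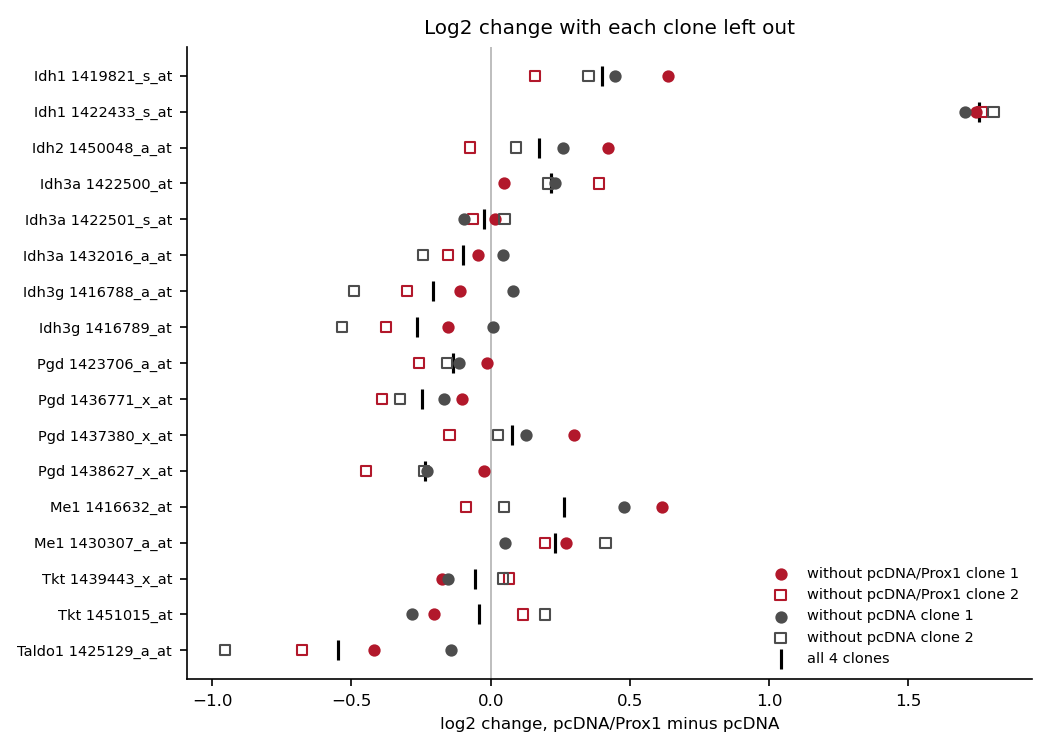
Log2 change of each member probe set, pcDNA/Prox1 minus pcDNA, with all 4 clones (black bars) and with each clone left out (red for a pcDNA/Prox1 clone, grey for a pcDNA clone, filled circles for clone 1 and open squares for clone 2). Idh1 1422433_s_at stays between 1.70 and 1.81, and Taldo1 runs from -0.95 to -0.14.

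Genes whose values over the 4 arrays followed those of Idh1 most closely were looked for by the Euclidean distance between log2 values centred on each gene's own mean. The nearest 5 of the 10727 tested probe sets with 1 gene, 1 probe set per gene, were Tgfb3 (distance 0.22), Eef1a2 (0.22), Ctnnal1 (0.37), Nid2 (0.38) and Ssr4 (0.38). Among the other members the nearest was the brighter Me1 probe set at 1.53 and the farthest Taldo1 at 2.40. Tgfb3, which encodes transforming growth factor beta 3, read 189 and 207 in pcDNA/Prox1-labelled clones, against 13.0 and 20.3 in pcDNA clones, where it lay under the highest Bacillus control. Eef1a2, a translation elongation factor, read 525 and 552 against 149 and 126. Ctnnal1, which encodes alpha-catulin, read 509 and 625 against 178 and 148, and its other probe set had a change of 0.88. Nid2, a basement membrane protein, read 264 and 362 against 72.4 and 82.1. These genes were found by their likeness in the contrast itself, over 4 arrays that fall into 2 groups, so their likeness is a description. Tgfb3, Eef1a2, Nid2 and the Ssr4 probe set passed the intensity filter through the pcDNA/Prox1-labelled clones alone. Ssr4, a subunit of the translocon-associated complex, read 277 and 263 against 76.5 and 53.9 by the probe set concerned (1435709_at), while its other probe sets had changes of 0.056 and 0.11.

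Related pathways were described from 8 lists, with the brightest tested probe set for each gene. Over all 6956 genes tested, 0.101% were called higher and 0.0144% lower at an adjusted p under 0.05. At an unadjusted p under 0.05 the shares were 8.21% and 6.14% (7.69% and 5.79% without the 166 genes above the array median in 1 group only), and the median log2 change was 0.007. In each of the 8 lists 0 genes passed the adjusted threshold in limma. Between 0 and 11 genes of a list had an unadjusted p under 0.05.

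The other NADPH-producing enzymes gave a median change of 0.050 over 6 genes tested of 12 listed, 3 of them positive, with 1 gene at an unadjusted p under 0.05. The median was -0.042 without pcDNA clone 1 and 0.123 without pcDNA clone 2, and it was 0.018 without pcDNA/Prox1-labelled clone 1 and 0.082 without its clone 2. It was -0.009 without the intensity filter and 0.214 with a filter at the 75th percentile. The gene past the unadjusted threshold was H6pd, the hexose-6-phosphate dehydrogenase of the endoplasmic reticulum. H6pd read 402 and 371 in pcDNA/Prox1-labelled clones, against 52.7 and 264 in pcDNA clones (1.30 ± 0.44, limma adjusted p = 0.241). Its pcDNA clones lay further apart than pcDNA clone 2 and the pcDNA/Prox1-labelled clones did. Nadk, the kinase that makes NADP from NAD, read 1464 and 1536 against 975 and 1344 (0.38 ± 0.21, adjusted p = 0.446). The mitochondrial malic enzyme Me2 read 388 and 325 against 404 and 469 (-0.26 ± 0.20, adjusted p = 0.607).

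The other genes of the pentose phosphate pathway had a median of 0.306 over 9 tested of 13 listed, 7 of them positive, and 2 had an unadjusted p under 0.05, H6pd and Rpe. Rpe, the epimerase that interconverts ribulose and xylulose phosphates, read 940.0 and 1110.0 in pcDNA/Prox1-labelled clones, against 791 and 559 in pcDNA clones (0.59 ± 0.22, adjusted p = 0.281). Its next probe set (1416705_at) overlapped, with a change of 0.095. Prps2, which makes the nucleotide precursor phosphoribosyl pyrophosphate, read 1120.4 and 1503 against 1015 and 975 (0.37 ± 0.20, adjusted p = 0.448). The median of the list was 0.050 with the filter at the 75th percentile, 0.164 without pcDNA/Prox1-labelled clone 2 and 0.190 without pcDNA clone 2.

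The citric acid cycle list had a median of 0.121 over 20 genes tested of 21 listed, 11 positive and 9 negative, with 2 at an unadjusted p under 0.05. Without pcDNA clone 1 the median was 0.006 and without pcDNA clone 2 it was -0.013. Dlat, a subunit of pyruvate dehydrogenase, read 170 and 282 in pcDNA/Prox1-labelled clones, against 434 and 359.7 in pcDNA clones (-0.73 ± 0.25, adjusted p = 0.248), while its other probe sets had changes of -0.55 and 0.092 (1452005_at). Aco1, the cytosolic aconitase that makes the isocitrate used by Idh1, read 1031 and 1406 against 750.2 and 904 (0.52 ± 0.22, adjusted p = 0.315). The groups of Aco1 did not overlap in either of its probe sets. Sdhc, a subunit of succinate dehydrogenase, gave -0.38 ± 0.20 (adjusted p = 0.415) and 0.023 in its other probe set.

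Enzymes and carriers of 2-oxoglutarate and citrate had a median of -0.034 over 10 genes tested of 16 listed, with 0 at an unadjusted p under 0.05. It was 0.039 without pcDNA/Prox1-labelled clone 2 and 0.031 without pcDNA clone 2. The aspartate aminotransferases Got2 (-0.37 ± 0.18, adjusted p = 0.390) and Got1 (-0.35 ± 0.19, adjusted p = 0.424) and the branched-chain aminotransferase Bcat2 (0.35 ± 0.22, adjusted p = 0.505) had the smallest p-values. In the other Got2 probe set (1417716_at) the groups overlapped, with a change of -0.17. Oxygenases that use 2-oxoglutarate, the product of Idh1, had a median of -0.218 over 13 genes tested of 26 listed, with 1 higher and 3 lower at an unadjusted p under 0.05. P4ha2, a collagen prolyl hydroxylase subunit, read 90.4 and 142 in pcDNA/Prox1-labelled clones, against 513 and 353 in pcDNA clones, a log2 change of -1.55. It passed the intensity filter through the pcDNA clones alone, so no test of it is given, and without it 2 of 12 genes were lower and the median was -0.119. Kdm2b, a histone demethylase, gave -0.66 ± 0.21 (adjusted p = 0.220) and Egln3, a prolyl hydroxylase of the hypoxia-inducible factors, 0.65 ± 0.21 (adjusted p = 0.220). The median of these oxygenases was 0.017 without pcDNA/Prox1-labelled clone 2 and -0.0050 without pcDNA clone 1, and 0.023 without the intensity filter.

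Enzymes that use NADPH had a median of -0.002 over 18 genes tested of 24 listed, 9 positive and 9 negative, with 2 higher and 3 lower at an unadjusted p under 0.05. The squalene epoxidase Sqle read 1086 and 1130.0 in pcDNA/Prox1-labelled clones, against 441 and 707 in pcDNA clones (0.93 ± 0.24, adjusted p = 0.167). Txnrd2, the mitochondrial thioredoxin reductase, read 130.3 and 143 against 233 and 257 (log2 change -0.67). Nox4, an NADPH oxidase, read 334 and 245 against 162 and 168 (log2 change 0.65), and its other probe set overlapped. Txnrd2 and Nox4 passed the intensity filter through 1 group alone, so no test of them is given, and without them 1 gene was higher and 2 were lower of 16. The median of the list was -0.144 without pcDNA clone 1 and 0.029 without pcDNA clone 2.

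NRF2, encoded by Nfe2l2, is known to drive genes of the antioxidant response, among them several enzymes of the set. The list of its pathway and targets had a median of -0.141 over 20 genes tested of 23 listed, 10 positive and 10 negative. At an unadjusted p under 0.05 there were 1 higher (Ugdh, log2 change 0.46) and 6 lower. Slc7a11, the cystine transporter, read 268 and 302 in pcDNA/Prox1-labelled clones, against 588 and 543 in pcDNA clones (-0.88 ± 0.20, adjusted p = 0.140). The sulfiredoxin Srxn1 read 1767 and 1685 against 3791 and 2574 (-0.84 ± 0.22, adjusted p = 0.168), and the exporter Abcc1 read 754 and 803 against 1537 and 1188 (-0.76 ± 0.20, adjusted p = 0.174). The median of the list was -0.357 without pcDNA/Prox1-labelled clone 2, -0.227 without pcDNA clone 2 and 0.006 with the filter at the 75th percentile.

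SREBP factors are known to drive sterol and fatty acid synthesis, a large use of NADPH, and Idh1 has been described among their targets. Their list had a median of 0.287 over 28 genes tested of 36 listed, 24 of them positive, with 11 higher and 0 lower at an unadjusted p under 0.05. Idi1, an isoprenoid isomerase, read 838 and 836 in pcDNA/Prox1-labelled clones, against 243 and 334 in pcDNA clones (1.41 ± 0.21, adjusted p = 0.0638). Msmo1, a methylsterol oxidase, read 655 and 769.7 against 49.6 and 233 (2.20 ± 0.42, adjusted p = 0.112), and Fdps, the farnesyl diphosphate synthase, read 1379 and 1803 against 704 and 811 (1.02 ± 0.21, adjusted p = 0.128). pcDNA clone 1 had the lowest value for 22 of the 28 genes, against 35.5% of all genes tested, and the median was 0.136 without that clone and 0.569 without pcDNA clone 2. It was 0.495 with the filter at the 75th percentile. The change of Idh1 was 1.70 without pcDNA clone 1 and 1.81 without pcDNA clone 2. That is 1 probe set chosen by this contrast, so it does not compare with the median of a list.

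**Figure D4:**
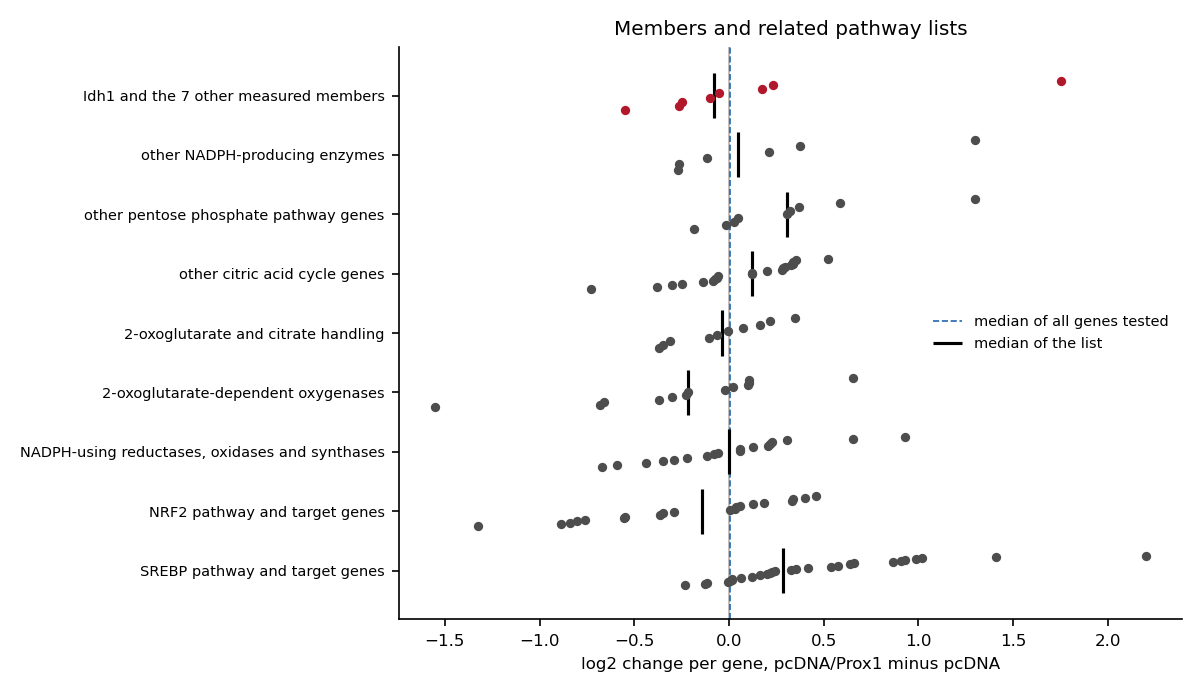
Log2 change per gene, pcDNA/Prox1 minus pcDNA, for the 8 measured members (red, brightest tested probe set) and the 8 related lists (grey), with the median of each list as a black bar and that of all genes tested, 0.007, as a dashed line. List medians run from -0.218 to 0.306, and Idh1 at 1.75 lies apart from the other 7 members.

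Adipocytes are rich in Idh1 and Me1. The summed intensity of 5 adipocyte markers differed between the groups, mostly through Pparg, and its part in the result was not tested. That sum was 476 and 638 in pcDNA/Prox1-labelled clones, against 218.5 and 345 in pcDNA clones. The defining markers Adipoq, Lep, Cidec and Lpl lay under the highest Bacillus control on all 4 arrays. Most of the sum was Pparg, a nuclear receptor that endothelial cells also express, with 314 and 507 against 128 and 250.3 (log2 change 0.97, limma adjusted p = 0.220).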

How the data were processed

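RNA of each clone was hybridised to 1 one-colour Affymetrix array (4 in all), and titles gave groups and clone numbers. Linear intensities per probe set were deposited, for which the submitters' processing notes name MAS5; its version is not given in the sources used here. The mean of each deposited column after trimming 2% at either end was 500, and no further normalization was applied. Precision is limited by having 4 arrays.

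Of 22690 probe sets, 64 Affymetrix controls were left out, and the platform annotation gave a single gene for 20380 of the remainder, more than 1 for 691 and no gene for 1555; 20351 of those with a single gene matched RefSeq's table (GRCm38.p6) by gene identifier. Values were analysed as log2(intensity + 47), 47 being the 25th percentile of all values, which understates changes of dim probe sets. Probe sets above their array's median on at least 2 of the 4 arrays were tested (11656) by limma (version 3.58.1, R 4.3.3), using lmFit, then eBayes allowing a trend with intensity; tests were 2-sided, p-values were adjusted after Benjamini and Hochberg over the 11656, and the threshold was 0.05. Members below that filter were read from the same fit on all probe sets. The procedure was tested on simulated data.

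The members and lists were chosen with earlier results of these data known. Genes named were all members, Prox1, Pecam1, Cdh5, up to 3 genes with the smallest unadjusted p of each list, and the 5 genes nearest to Idh1; other genes named were chosen after their values were seen. Alternatives were quantile normalization, median centring, no or a larger pseudocount (173, the median of all values), no or a stricter filter, no intensity trend, the clone number as a block, each clone left out, the mean over a gene's probe sets and a shorter promoter window. Leaving out genes above the array median in 1 group only was chosen after seeing the data. Protein sequences were not analysed here.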

Additional observations from a re-analysis of the deposited data

How the results depend on the processing

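The log2 change of Idh1 was positive under all 12 alternatives, but Idh1 was chosen by this contrast. The filter settings, the fit without a trend and the block cannot alter this estimate and gave the same 1.75. Omitting the pseudocount gave 1.97 and enlarging it 1.37, which follows from the pseudocount's construction. Leaving out a clone gave 1.70 to 1.81. The counts of 11 probe sets higher and 1 lower in the pcDNA/Prox1-labelled clones were less stable. Quantile normalization gave 4 and 0, median centring 8 and 0, the larger pseudocount 13 and 2, and the filter at the 75th percentile 7 and 2. Without a filter limma called 0 and 0, although 2300 reached an unadjusted p under 0.05. The replicate block gave 78 and 32. Leaving out pcDNA/Prox1-labelled clone 1 gave 26 higher and 16 lower, its clone 2 gave 46 and 21, pcDNA clone 1 gave 102 and 31 and pcDNA clone 2 gave 739 and 411; 1 array is then left in that group and is assumed to vary like the other group. The cause of the other changes in these counts was not tested. Clone numbers name the clones and do not pair them: the deviations of clone 1 from its group mean in the 2 groups had a correlation of -0.009 over 11656 probe sets. Of the other values, 301 stayed within the spread between clones or within 1.5 times the count and 5 did not. Part of this tally was fixed in advance. Leaving out a clone shifts a member's change by less than that spread, and filter, trend and block settings leave it unchanged. The tally is thus no measure of stability. Signals near the Bacillus controls limit the size of changes of dim probe sets.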

Other observations

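pcDNA clone 1 had the highest value for 4 of the 8 measured members by their brightest probe set and for 9 of the 20 genes tested of the NRF2 list, against 26.8% of all genes tested. In that list Hmox1, the inducible heme oxygenase, read 3015 and 2959 in pcDNA/Prox1-labelled clones 1 and 2, against 12127 and 4709 in pcDNA clones 1 and 2 (log2 change -1.33 ± 0.36, limma adjusted p = 0.175). Gclm, the modifier subunit of the enzyme that starts glutathione synthesis, read 2916 and 2714 against 6099 and 4014 (-0.80 ± 0.22, adjusted p = 0.178), and its catalytic subunit Gclc read 853 and 707 against 1574 and 854 (-0.55 ± 0.28, adjusted p = 0.400). In the other Gclc probe set the groups overlapped, with a change of -0.33. Nfe2l2 itself read 4233 and 4775 against 3956 and 3957 (0.18 ± 0.17, adjusted p = 0.680). Taldo1 had a like order of the pcDNA clones, with 4241 in clone 1 and 2397 in clone 2. So, by their brightest probe sets, did Idh3g (3564 and 2431), Pgd (4218 and 3772), Idh3a (2326 and 1898) and Idh2 (331 and 289). The order was reversed in Me1 (1538 and 1988), Tkt (3509 and 4036) and Idh1 (197 and 215). Whether NRF2 has a part in these orders was not tested. The NRF2 list also held 10 genes with a positive change, among them Ugdh (0.46), Gstm1 (0.40), Ephx1 (0.34) and Txn1 (0.33). The groups of Gstm1 overlapped in this probe set, with 472 and 491 against 227 and 537. They did not overlap in its other tested probe set (1448330_at), with a change of 0.55. The genes of the NRF2 list named here were chosen after their values were seen, and none of them passed the adjusted threshold. The order of the members was likewise looked at after their values were seen.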
